A study of Mus musculus with 12 samples.

Results

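Resting bone marrow-derived macrophages (BMDMs) that lacked the selenocysteine tRNA gene Trsp were compared with control BMDMs. Of the 12 arrays of the series, 6 were compared. They were the 3 arrays of untreated knockout cells and the 3 arrays of untreated control cells, as their titles give them. The other arrays, of cells treated with lipopolysaccharide (LPS), shared the normalization and the fit behind the p-values. Mice were female, of strain c57bl6. The knockout genotype was Trspfl/fl-LysM-Cre+/- (ΔTrspM) and the control genotype Trspfl/fl-LysM-Cre-/-, so both groups carried the floxed Trsp allele and the controls lacked Cre. Marrow cells were grown with M-CSF for 7 days, and total RNA was hybridized to Affymetrix whole-genome mouse GeneChips. On these arrays a probe set, a group of short probes, reports on a transcript. The comparison addresses which mRNAs differ when selenoprotein synthesis is lost in macrophages that have not been stimulated. Of 45037 probe sets other than controls, 34945 carried 1 gene symbol, and the brightest of each gene was tested, which gave 18193 genes.

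Trsp encodes the tRNA that carries selenocysteine. That amino acid is inserted at UGA codons of selenoprotein mRNAs and sits in the active sites of glutathione peroxidases, thioredoxin reductases and other redox enzymes. Without this tRNA selenoproteins cannot be made, while their mRNAs can still be transcribed. Cre driven by the lysozyme M promoter acts in myeloid cells, including macrophages and neutrophils, so a cell that did not express it would keep Trsp. Trsp itself was not analysed here, and the labels give no measure of how completely it was deleted. Lyz2, the lysozyme M gene, had log2 values of 13.41, 13.29 and 13.54 in control cells and 13.63, 13.69 and 13.64 in ΔTrspM cells. Values of genes throughout are log2(normalized signal + 16). On this scale 4 stands for no signal, and a difference of 1 between such values is at least a doubling of signal. Fold changes on it understate the change of dim genes.

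The cells had the markers of macrophages on all 6 arrays. Csf1r, the M-CSF receptor, lay between 13.62 and 13.81. Adgre1, which encodes the F4/80 antigen, lay between 13.38 and 13.85, and Mpeg1, a pore-forming protein of phagocytes, between 13.61 and 13.97. The 10 markers of macrophages that were looked at lay between 8.89 and 13.97. Xist was between 12.44 and 13.10, and the 3 measured genes of the Y chromosome (Eif2s3y, Kdm5d and Uty) lay between 4.10 and 5.65, as for cells of female mice. Lymphoid markers Cd3e and Ncr1 stayed at or below 5.86. Among neutrophil markers S100a8 was bright, at 11.18 to 12.39. Elane and Mpo were dimmer, at 5.726 to 7.996 and 6.22 to 8.04.

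The replicates with number 2 stood apart in both genotypes. The control array with that number was the highest of the 3 controls for 32 of 32 interferon-stimulated genes and the lowest for 26 of 27 proliferation genes. The ΔTrspM array with that number was the lowest of its group for 27 of 27 proliferation genes and the highest for 24 of 32 interferon-stimulated genes. After the group means were removed, arrays with the same number correlated across genes at 0.173, 0.442 and 0.375. For lists that these arrays moved most, medians are also given without control replicate 2, which leaves the groups unbalanced in that number, or without replicate 2 of both genotypes, which does not. The 3' to 5' ratio of the actin control probe sets, a sign of RNA integrity, was 1.049 to 1.056 in control and 1.07 to 1.11 in ΔTrspM cells. The ratio for Gapdh overlapped, at 0.830 to 0.870 and 0.838 to 0.856, and the part of RNA quality in the differences was not tested.

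Few genes differed by much. Of 18193 genes, 88.3% had an absolute log2 fold change under 0.5, and a 2-fold difference or more was seen for 95 genes with more signal and 102 with less signal in ΔTrspM cells. At an adjusted p under 0.05 (limma, Benjamini-Hochberg), 0 genes were called (0%), and the smallest adjusted p was 0.0705, shared by Vcam1, Mt2 and Uchl1. At an unadjusted p under 0.05, limma counted 204 genes as higher (1.12%) and 231 as lower (1.27%). The split turned with the scaling, to 332 higher and 188 lower with each array centred on its median and to 41 and 81 for unscaled signals. The numbers were taken to pair the resting cultures, which the labels do not state. The p-values are from the fit without pairing unless the block is named, and a fit over the 12 arrays that blocked on the numbers was made too. In it 457 were higher and 343 lower, and 0 passed the adjusted threshold. A block over the 6 resting arrays alone gave 765 higher and 488 lower, with 0 past the adjusted threshold. All ΔTrspM arrays lay above all control arrays for 756 genes (4.16%) and below them for 576 genes (3.17%).

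**Figure D1:**
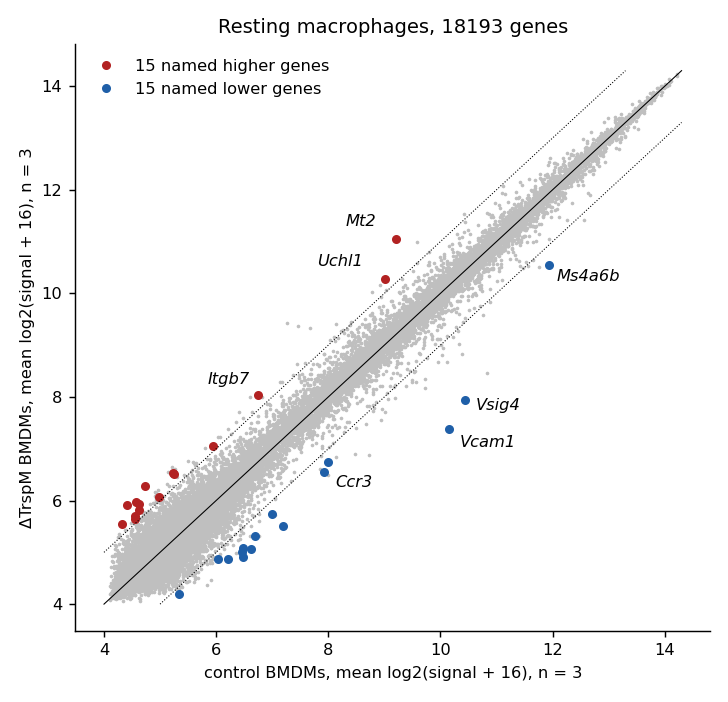
Mean log2(signal + 16) of each of 18193 genes over the 3 control arrays (x axis) and the 3 ΔTrspM arrays (y axis). The solid line marks equal values and the dotted lines a difference of 1, and coloured points are the 15 named genes that were higher and the 15 that were lower at an unadjusted p under 0.01. Vcam1 and Vsig4 lie farthest below the line and Mt2 and Uchl1 stand above it among the brighter genes.

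The named genes are the 15 largest differences each way among the 84 genes with an unadjusted p under 0.01, of which 38 were higher and 46 lower. The arrays of the genotypes did not overlap for any of these 84. Both group means were under 6 for 46 of the 84, a range close to the floor of the scale. Of the 15 named higher genes 7 were that dim, and of the 15 named lower genes 1.

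Vcam1 had the largest log2 difference of the 30 named genes. It encodes vascular cell adhesion molecule 1, which binds the integrin VLA-4 on leukocytes and is made by some macrophages as well as by endothelium. Its log2 values were 9.63, 10.18 and 10.63 in control cells and 7.04, 6.92 and 8.20 in ΔTrspM cells. The highest ΔTrspM array lay below the lowest control array. The fitted log2 fold change was -2.76 ± 0.36 (SE, n = 3 and 3), 6.78-fold lower in ΔTrspM cells (limma adjusted p = 0.0705). All 3 of its probe sets were lower, with log2 fold changes of -2.76, -1.99 and -1.84. Of other adhesion genes, Itgb7, the integrin β7 chain, had means of 6.75 ± 0.48 in control and 8.04 ± 0.26 in ΔTrspM cells (SD, n = 3), with no overlap. Nectin1, a cell-junction protein, was 1.27 higher by its brightest probe set, but 0.26 and 0.49 by the others. Among the 26 measured adhesion molecules and leukocyte integrins, 12 had a higher and 14 a lower mean, with a median log2 fold change of -0.01.

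Vsig4 encodes a receptor for complement C3b that marks tissue-resident macrophages such as Kupffer cells. Control arrays gave 10.60, 10.43 and 10.26, and ΔTrspM arrays 8.44, 7.49 and 7.90. The groups did not overlap, and the differences between arrays of the same number were -2.16, -2.94 and -2.37. The fold change was -2.49 ± 0.37 on the log2 scale (SE), 5.61-fold lower (limma adjusted p = 0.129).

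Other genes of resident macrophages were lower as well. Maf, a transcription factor of mature macrophages, had values of 12.65, 12.68 and 12.69 in control cells and 12.00, 12.16 and 11.56 in ΔTrspM cells. Its 6 probe sets were all lower, by -0.52 to -0.88. Fcna, the lectin ficolin A of the complement system, was 8.68, 9.45 and 9.40 in control cells and 8.18, 8.54 and 7.88 in ΔTrspM cells. Both genes showed no overlap between the groups, with unadjusted p of 0.00584 for Maf and 0.00684 for Fcna, and neither passed the adjusted test. Cd163, the receptor for haemoglobin-haptoglobin, had a log2 fold change of -0.69, and Stab1, a scavenger receptor, of -0.37.

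Of the 23 measured resident macrophage markers 19 had a lower and 4 a higher mean. At an unadjusted p under 0.05, 5 were lower, against 1.27% of all genes, and 7 were lower with no overlap, against 3.17% of all genes. Their median log2 fold change was -0.37, against 0.04 over all genes tested. It was -0.32 without control replicate 2 and -0.15 without replicate 2 of both genotypes, with 17 lower and 6 higher in each setting. At an unadjusted p under 0.05 (limma), 1 was then higher and 4 lower in each. Of all 18193 genes 275 were higher and 220 lower in the first setting, and 267 and 175 in the second. The highest value of the list was 0.65, and over all 6 arrays the exceptions were Clec4f, Marco, Folr2 and Ccl24. Of these Clec4f, a lectin of Kupffer cells, was dim, with values between 4.89 and 6.50. The 21 general macrophage genes had a median of -0.08, the lowest at -0.61 (Itgam) and the highest at 0.24 (Lyz2). In bulk cultures a smaller share of cells with a marker and less mRNA for each cell cannot be told apart.

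Complement genes partly overlap that list. Of 21 measured components and receptors, 17 had a lower mean, and the median of the list was -0.20. At an unadjusted p under 0.05, 4 were lower (Vsig4, Fcna, Cd55 and C2), against 1.27% of all genes. Cd55, which limits complement activation on cells, had a log2 fold change of -0.71, and C2, a protease of the classical pathway, of -0.95. C1qa was bright and showed no overlap, at 13.47 to 13.60 in control and 12.93 to 13.41 in ΔTrspM cells, a log2 fold change of -0.35. Other lower genes of myeloid cells were Ms4a6b, a membrane protein of the MS4A family, at -1.39 ± 0.40 (SE), and Ccr3, the eotaxin receptor, at -1.36 ± 0.35. Their unadjusted p values were 0.00535 and 0.00260 (limma). For Ms4a6b the pairs of equal number gave -0.72, -2.48 and -0.95, so the pair of replicate 2 differed most. Slc15a2, a peptide transporter, was 6.96, 6.92 and 7.13 in control and 5.56, 5.48 and 6.18 in ΔTrspM cells, and Abca9, a lipid transporter, was lower by a log2 fold change of -1.25. Cd4 was dim, at 5.24 to 7.48 in control and 4.81 to 5.02 in ΔTrspM cells.

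The other named lower genes were Sp110, Gbp6, Gbp8, Calhm6, Ear3, Prrxl1, Bmp4 and Gm26844. Their fold changes ran from -1.68 (Sp110) to -1.14 (Gm26844). By pairs of equal number Calhm6 was -0.10, -2.08 and -2.00, and Gbp6 was -0.67, -2.285 and -1.73. Ear3, a ribonuclease of the eosinophil-associated family, has close paralogs whose transcripts its probes may share. The third probe set of Sp110 did not show the difference, with a log2 fold change of 0.04, and the value of Sp110 was -0.95 without replicate 2 of both genotypes.

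**Figure D2:**
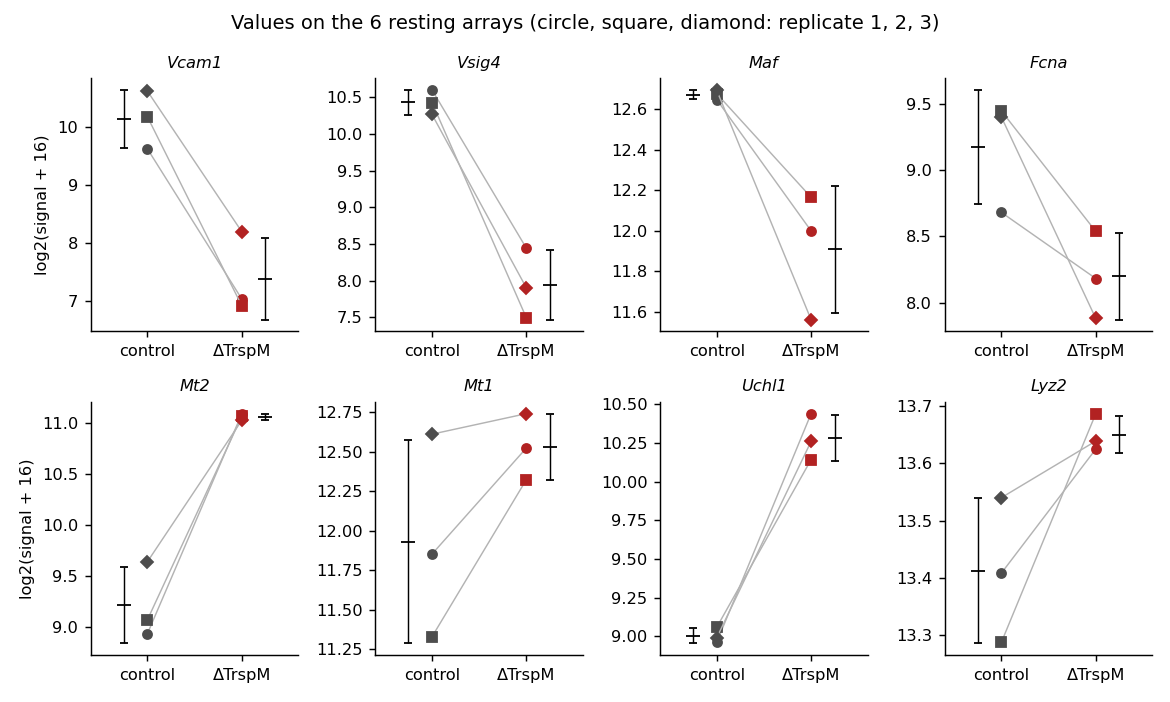
Log2(signal + 16) of 8 genes on the 3 control and 3 ΔTrspM arrays. Circles, squares and diamonds are replicates 1, 2 and 3, grey lines join equal replicate numbers, bars are the mean ± SD, and each panel has its own y axis. The groups do not overlap for Vcam1, Vsig4, Maf, Fcna, Mt2, Uchl1 and Lyz2, and Mt1 overlaps.

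Metallothionein 2 was the brightest of the 15 named higher genes. Metallothioneins are small cysteine-rich proteins that bind zinc and copper, and their genes respond to metals and oxidants through the metal-responsive transcription factor MTF1. Mt2 was 8.93, 9.06 and 9.63 in control cells and 11.09, 11.06 and 11.02 in ΔTrspM cells, whose arrays lay close together and above all control arrays. The difference was 1.85 ± 0.24 (log2, SE), 3.60-fold (limma adjusted p = 0.0705), and it was higher in all 3 pairs of equal number. It was 1.77 without replicate 2 of both genotypes. Mt1 was 11.85, 11.33 and 12.61 in control and 12.53, 12.32 and 12.74 in ΔTrspM cells. The groups overlapped for Mt1, with a log2 fold change of 0.60 ± 0.30 and an unadjusted p of 0.0719, although each ΔTrspM array exceeded the control array of its number. It was 0.30 without control replicate 2 and 0.40 without replicate 2 of both genotypes. The 250 bases upstream of the annotated starts are shown because the genes neighbour each other on chromosome 8 and both were higher. They come from RefSeq annotation of build GRCm38.p6 on the plus strand, Mt2 at chr8:94172368-94172617 and Mt1 at chr8:94178839-94179088. Capitals mark matches on either strand to TGCACNC or TGCGCNC, the core letters of the metal response element.
Mt2: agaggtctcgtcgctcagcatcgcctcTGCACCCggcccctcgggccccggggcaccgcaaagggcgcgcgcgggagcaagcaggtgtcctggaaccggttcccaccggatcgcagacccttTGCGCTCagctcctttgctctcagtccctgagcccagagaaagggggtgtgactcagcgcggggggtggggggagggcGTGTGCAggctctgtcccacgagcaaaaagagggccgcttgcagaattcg
Mt1: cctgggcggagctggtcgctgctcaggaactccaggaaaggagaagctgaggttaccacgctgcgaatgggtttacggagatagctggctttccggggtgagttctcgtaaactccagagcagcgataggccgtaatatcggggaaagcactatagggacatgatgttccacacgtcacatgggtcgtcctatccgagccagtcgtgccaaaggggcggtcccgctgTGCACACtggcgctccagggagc
The Mt2 window held 3 matches, at 223, 128 and 50 bases before the start, the last of them on the minus strand, and the Mt1 window held 1, at 23 bases before it. No match overlapped another. At least 1 such match occurred in 21.4% of 32851 windows of the same length, and 3 or more in 1.26%. The match is to letters alone, and no binding was measured. Both windows end at the annotated start, and bases downstream of it were not searched. The counts of 3 and 1 therefore do not compare the full promoters of the 2 genes.

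Of the 22 measured metallothionein and zinc transport genes 15 had a higher and 7 a lower mean, with a median of 0.12. Mtf1 itself had a log2 fold change of 0.27 (unadjusted p = 0.379), and Mt2 was the only member at an unadjusted p under 0.05. Slc39a6, a zinc importer, did not overlap, with a log2 fold change of 0.27.

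Uchl1 encodes a ubiquitin hydrolase best known from neurons. It was 8.96, 9.06 and 8.99 in control cells and 10.44, 10.14 and 10.26 in ΔTrspM cells, without overlap. The log2 fold change was 1.28 ± 0.17 (SE), 2.42-fold higher (limma adjusted p = 0.0705). Many of the other named higher genes were close to the floor of the scale. Gem, a small GTPase, was 4.73 ± 0.52 in control and 6.29 ± 0.30 in ΔTrspM cells (SD, n = 3). Chsy3, an enzyme of chondroitin sulfate synthesis, had a log2 fold change of 1.39 by 1 probe set and 0.003 by the other, and Utf1 one of 1.29, with 0.22 and -0.15 by its other probe sets. The rest were 5330434G04Rik, Muc3, Zfp940, Pantr1, Pcdhb2, Nkx2-6, Ceacam15 and Scn4b, with fold changes from 1.09 to 1.51 on the log2 scale. The other probe set gave 0.088 for 5330434G04Rik and -0.185 for Nkx2-6.

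The 4 leading genes were called or not depending on the processing. Vcam1, Mt2, Uchl1 and Vsig4 passed an adjusted p of 0.05 with a pseudocount of 64 and with limma's trend and robust options, and the first 3 of these also with dim genes left out and with probe sets of a gene averaged. Vcam1 alone passed without ΔTrspM replicate 3 (log2 fold change -3.17, adjusted p = 0.0198). Their adjusted p in the alternatives ran from 0.0105 to 1.

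After 4 h of LPS the same genotype difference was -0.56 for Vcam1 and -0.09 for Mt2, against 1.08 for Uchl1 and -2.68 for Vsig4. Mt2 was bright in both genotypes after LPS. A direct test of resting against LPS-stimulated differences gave an adjusted p of 0.850 for Vcam1 and 0.369 for Mt2, and no gene passed it at 0.05 (0 genes by limma, with 555 at an unadjusted p under 0.05).

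Selenoprotein mRNAs lay on both sides of 0. Of 23 measured selenoprotein genes 11 had a higher and 12 a lower mean. Their median log2 fold change was -0.01, with 0 at an unadjusted p under 0.05. It was -0.14 without control replicate 2, with 8 higher and 15 lower. Without replicate 2 of both genotypes it was -0.13, with 9 higher and 14 lower. Selenow, a small thioredoxin-like selenoprotein, was 10.27, 10.88 and 10.91 in control cells and 10.22, 10.00 and 10.19 in ΔTrspM cells. That is a log2 fold change of -0.55 ± 0.28 with no overlap (unadjusted p = 0.0770). Selenok, Selenop and Selenot also did not overlap, with log2 fold changes of -0.28, -0.15 and -0.12. Of the 23 genes 4 were lower with no overlap, against 3.17% of all genes, and 1 was higher, against 4.16%. Selenok and Selenot sit in the endoplasmic reticulum, and Selenop is secreted and carries selenium.

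Gpx1, the cytosolic glutathione peroxidase, had a log2 fold change of -0.20 ± 0.27, and Gpx4, which reduces lipid peroxides, of 0.13 ± 0.28. The thioredoxin reductases Txnrd1, Txnrd2 and Txnrd3 had 0.04, 0.27 and 0.07, and Txnrd2 alone of them did not overlap. Dio2, a deiodinase that activates thyroid hormone, had the highest value of the list at 0.77 ± 0.36 (unadjusted p = 0.0565) and overlapped. Its other probe sets gave -0.09 and 0.59. The value of Dio2 was 0.39 without control replicate 2 and 0.44 without replicate 2 of both genotypes. Gpx4 was -0.11 and 0.002 in those settings. The 10 genes of the selenocysteine machinery, which load the tRNA and deliver it to the ribosome, had a median of 0.04, the lowest at -0.15 (Eefsec) and the highest at 0.20 (Sars).

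NRF2 is the transcription factor that activates antioxidant and glutathione genes when KEAP1 is oxidized or modified. Of its 30 measured targets 25 had a higher mean in ΔTrspM cells, against 10271 of all 18193 genes, and the median was 0.24. Medians for the pairs of equal number were 0.17, 0.22 and 0.20. No target was past an unadjusted p of 0.05 (0 of 30). With the replicate block 2 were higher at that threshold, against 457 of all 18193 genes. The highest values were those of Gsta3 (0.81 ± 0.62) and Nqo1 (0.66 ± 0.46), a glutathione transferase and a quinone reductase. Nqo1 was 7.81, 8.50 and 6.77 in control and 7.98, 9.16 and 7.93 in ΔTrspM cells, so the groups overlapped while each pair was higher. Hmox1, the haem oxygenase, had 0.30 ± 0.29, and Nfe2l2, which encodes NRF2 itself, -0.24. Without scaling 22 targets were higher and 8 lower. The median was 0.09 without ΔTrspM replicate 2, 0.29 without control replicate 2 and 0.20 without replicate 2 of both genotypes, where 24 of 30 were higher. Without ΔTrspM replicate 2 Gsta3 was 0.26 and Nqo1 0.26, and without that number in both genotypes they were 0.55 and 0.66.

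Other antioxidant enzymes gave 18 higher and 2 lower means of 20 measured, with a median of 0.13. Sod3, the extracellular superoxide dismutase, had a log2 fold change of 1.06 (unadjusted p = 0.0454) from dim values that overlapped, 4.65 to 4.76 in control and 4.42 to 6.66 in ΔTrspM cells. Cat, the catalase gene, had 0.31 ± 0.23. The 7 measured subunits of the phagocyte NADPH oxidase had a median of -0.05, and Ncf4 was lower with no overlap, by a log2 fold change of -0.37 (unadjusted p = 0.0748).

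**Figure D3:**
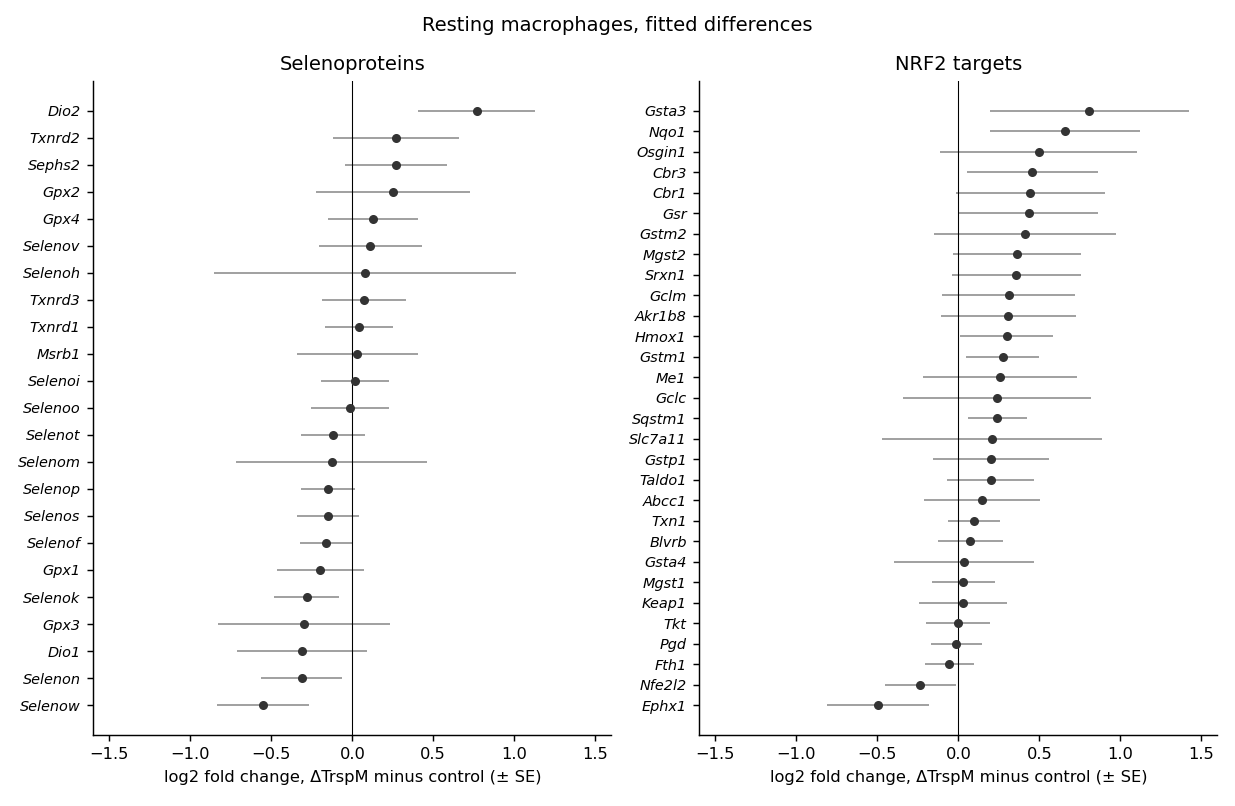
Fitted log2 fold changes (ΔTrspM minus control, x axis) with their SE for 23 selenoprotein genes and 30 NRF2 targets, each ordered by value. The selenoproteins lie on both sides of 0, from -0.55 (Selenow) to 0.77 (Dio2), and 25 of the 30 NRF2 targets lie to the right of 0.

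Interferon-stimulated genes, which encode antiviral effectors, were all lower on average, 32 of 32, but this rested on the control array of replicate 2. Their median log2 fold change was -1.03, and the medians of the pairs of equal number were 0.01, -2.59 and -0.32. Without control replicate 2 the median was -0.02, with 14 genes higher and 18 lower. Without replicate 2 of both genotypes it was -0.18, with 8 higher and 24 lower. Ifit1, an interferon-induced protein that binds foreign RNA, shows the pattern and its upstream sequence is given for that reason. It was 7.12, 11.46 and 7.57 in control cells and 6.80, 7.60 and 6.27 in ΔTrspM cells. The 150 bases before its annotated start are at chr19:34640739-34640888 of GRCm38.p6, plus strand (RefSeq). Capitals mark GAAA, any 2 bases and GAAA again, a core of the interferon-stimulated response element, read here on the minus strand.
Ifit1: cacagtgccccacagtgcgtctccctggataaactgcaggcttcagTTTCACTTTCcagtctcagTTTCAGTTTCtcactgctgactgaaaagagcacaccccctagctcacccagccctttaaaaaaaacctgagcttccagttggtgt
The matches begin 104 and 85 bases before the start and do not overlap. Within 250 bases upstream, this motif on either strand occurred in 2.98% of all windows. Of the 24 interferon-stimulated genes with an annotated window, 8 held it (33.3%), against 3.46% of 27025 genes.

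With the replicate block 7 interferon-stimulated genes were lower at an unadjusted p under 0.05, against 1 (Sp110) without it. With replicate 2 left out of all groups and the block kept, 1 was. Of all 18193 genes 343 were lower with the block, and 345 with replicate 2 also left out. A block over the 6 resting arrays alone gave 3 lower interferon-stimulated genes, against 488 of all genes. The guanylate-binding proteins and immunity-related GTPases, which attack intracellular vacuoles, gave 9 lower means of 9. Their median was -0.94, and -0.02 without control replicate 2, with 5 of 9 lower. Without replicate 2 of both genotypes it was -0.31, with 6 of 9 lower. Gbp8 and Gbp6 did not overlap and were lower in each pair. Gbp8 was 6.17, 6.80 and 6.48 in control and 5.25, 5.53 and 4.45 in ΔTrspM cells (log2 fold change -1.41 ± 0.31, unadjusted p = 0.000758). MHC class I and peptide-loading genes had 12 lower means of 12 and a median of -0.28, or -0.09 without control replicate 2 and -0.05 without replicate 2 of both genotypes. H2-M3, which presents formylated peptides, was 10.15 to 10.26 in control and 9.67 to 9.88 in ΔTrspM cells without overlap (log2 fold change -0.42).

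**Figure D4:**
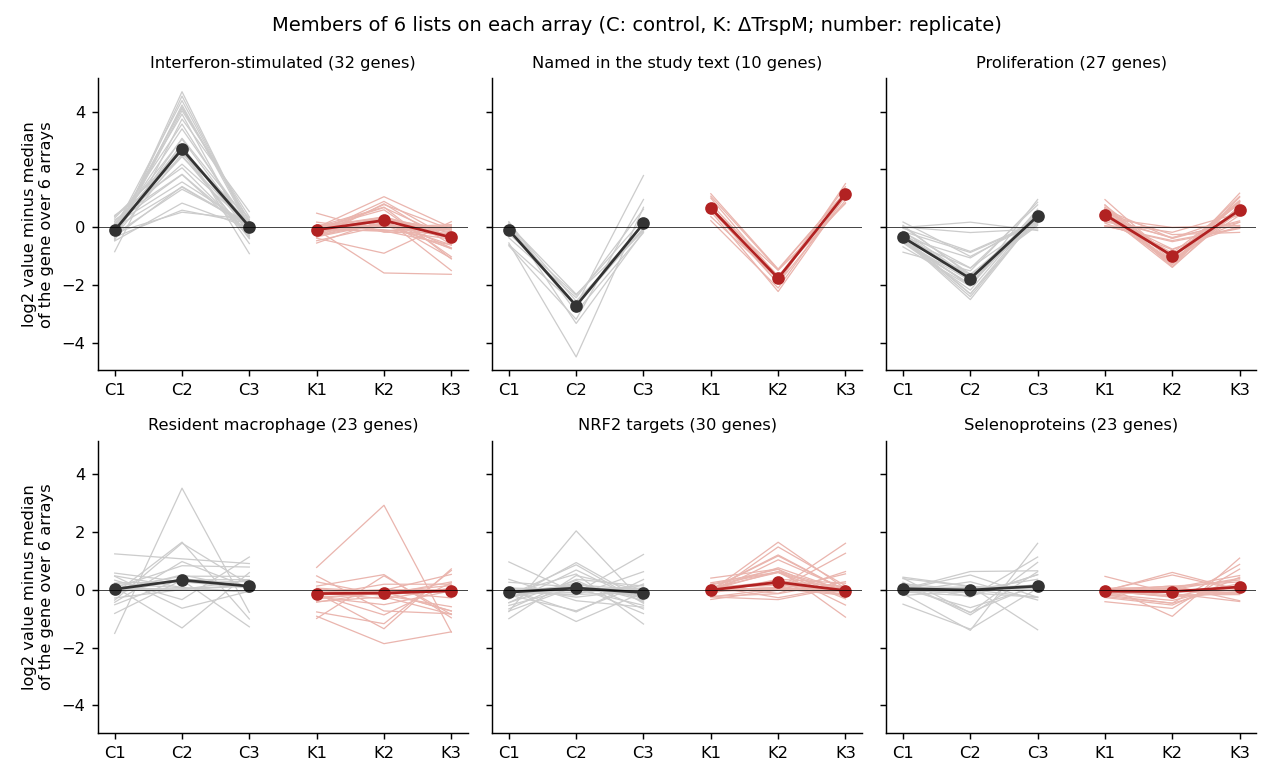
Each gene's log2 value minus its own median over the 6 arrays (y axis) on control (C) and ΔTrspM (K) arrays 1 to 3, for 6 gene lists. Thin lines are genes and thick lines with points are list medians. The interferon-stimulated genes peak on control array 2, and the proliferation genes and the genes named in the study text dip on array 2 of both genotypes.

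The study reported significant differences by real-time qPCR for genes from its arrays, in untreated and LPS-treated BMDMs, and those values were not examined here. Its text names 10 matrix and cytoskeleton genes from these arrays. Since it chose them on these samples, their direction on the arrays is not independent evidence. All 10 had a higher mean in ΔTrspM cells, with a median log2 fold change of 0.97, and none passed an unadjusted p of 0.05 (0 of 10). Ccn2, a matricellular growth factor, was 10.84, 7.35 and 10.54 in control and 11.85, 9.24 and 11.91 in ΔTrspM cells, so the values of number 2 were the lowest of each group. Tagln, an actin-binding protein of smooth muscle, had a log2 fold change of 1.08 ± 1.00. Timp3, an inhibitor of matrix metalloproteinases, had 0.90 ± 0.83. In the pairs of equal number the list medians were 0.89, 0.94 and 0.86, and 9 of 10 genes were higher in each pair, against 17.8% of all genes. With the replicate block over 12 arrays 5 were higher at an unadjusted p under 0.05, against 457 of all 18193 genes. Over the 6 resting arrays alone the block gave 9, against 765 of all genes. Without control replicate 2 alone the median was -0.05, with 4 of 10 higher. Without replicate 2 of both genotypes it was 0.79, with 10 of 10 higher.

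Wider lists of matrix and cytoskeleton genes were higher on average too. Of 22 collagens 19 had a higher mean, with a median of 0.32. It was -0.12 without control replicate 2, and 0.30 with 18 of 22 higher without replicate 2 of both genotypes. Of 33 matrix glycoproteins and collagen-modifying enzymes 27 had a higher mean, with a median of 0.61. It was 0.14 without control replicate 2, and 0.65 with 27 of 33 higher without replicate 2 of both genotypes. P4ha2 and Plod2, enzymes that hydroxylate collagen, were higher with no overlap, at 0.78 ± 0.27 and 0.68 ± 0.25 (unadjusted p = 0.0132 and 0.0182). Smooth-muscle type cytoskeletal genes gave 22 of 25 higher means and a median of 0.36. It was 0.06 without control replicate 2, and 0.30 with 24 of 25 higher without replicate 2 of both genotypes. Adamts1, a matrix protease, was 6.23, 5.69 and 6.73 in control and 6.83, 7.17 and 8.12 in ΔTrspM cells without overlap (log2 fold change 1.16, unadjusted p = 0.0113). With the replicate block 9 of the matrix glycoprotein genes, 7 of the cytoskeletal genes and 3 of the collagens were higher at an unadjusted p under 0.05. In that fit 1 collagen was lower, and of all 18193 genes 457 were higher and 343 lower. A block over the 6 resting arrays alone gave 16, 8 and 4 higher genes of these lists and 1 lower collagen. Of all genes 765 were then higher and 488 lower.

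Stromal cell markers stood beside these genes. Of 20 measured, 14 had a higher and 6 a lower mean, with a median of 0.25, and 0.37 without replicate 2 of both genotypes. Their summed normalized signal ranged from 5123 to 13523 in control and from 6576 to 13227 in ΔTrspM cells. Of the defining markers, Pdgfra and Thy1 were dim at 4.87 to 6.15, with log2 fold changes of 0.10 and -0.47. Cdh11, an adhesion molecule of fibroblasts, was 7.88, 5.79 and 8.43 in control and 8.96, 6.57 and 9.73 in ΔTrspM cells. Pdgfrb was 7.26, 5.87 and 7.56 in control and 7.75, 6.50 and 8.79 in ΔTrspM cells. Cxcl12 was 6.98, 5.45 and 6.92 in control and 7.39, 6.10 and 7.76 in ΔTrspM cells. Each of these 3 was higher in every pair of equal number, and the groups overlapped. Col1a1 ranged from 6.54 to 11.04 over the 6 arrays. The part of stromal cells in the matrix differences was not tested.

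Proliferation genes gave 27 higher means of 27, with a median of 0.69. The pairs of equal number had medians of 0.81, 0.76 and 0.19, and without control replicate 2 the median was 0.04. Without replicate 2 of both genotypes it was 0.49, with 24 of 27 higher. Mki67, a marker of cycling cells, was 11.59, 9.49 and 12.41 in control and 12.45, 10.79 and 12.53 in ΔTrspM cells (log2 fold change 0.76 ± 0.67). With the replicate block 15 of 27 were higher at an unadjusted p under 0.05, and without the block 0. With replicate 2 left out of all groups and the block kept, 6 were. Over all 18193 genes these counts were 457, 204 and 540. A block over the 6 resting arrays alone gave 15 of 27, against 765 of all genes.

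**Figure D5:**
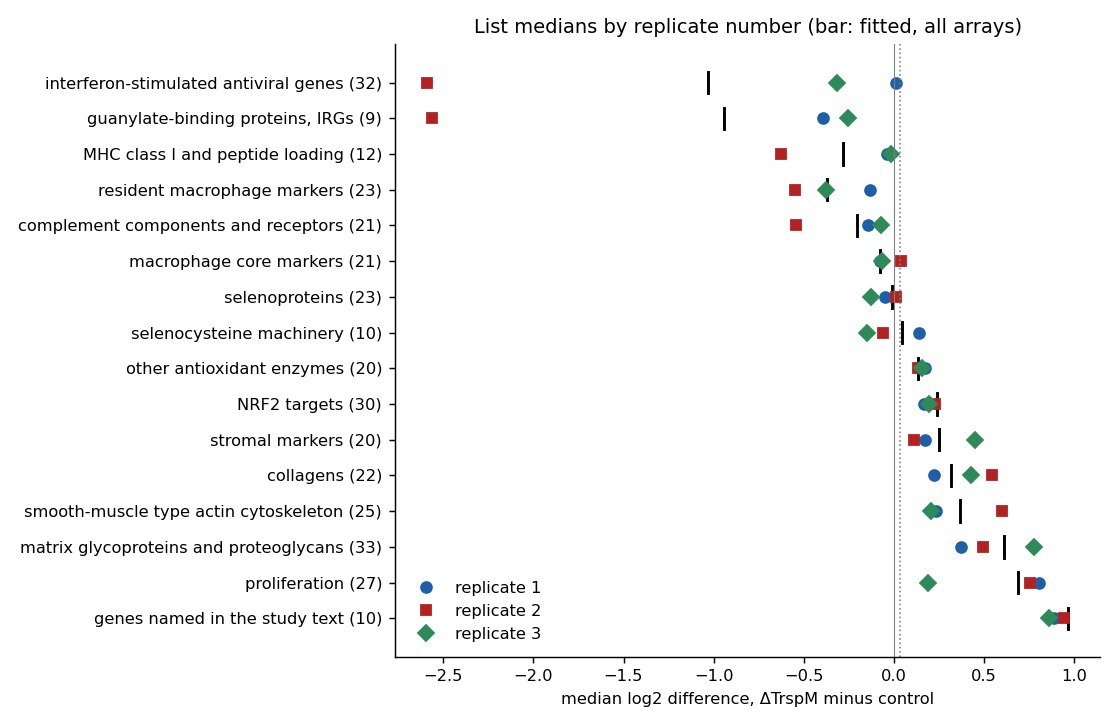
Median log2 difference, ΔTrspM minus control (x axis), of the members of 16 gene lists, with the number measured in brackets. Circles, squares and diamonds are the array pairs with replicate numbers 1, 2 and 3, black bars the median of the fitted fold changes, and the dotted line that of all genes. Interferon-stimulated genes spread from 0.01 to -2.59, whereas NRF2 targets stay between 0.17 and 0.22.

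Inflammatory mediators of resting cells were split, with 15 higher and 8 lower means of 23 measured and a median of 0.08. The median was 0.34, with 18 higher, without replicate 2 of both genotypes. Ptgs2, the inducible cyclooxygenase, was 8.91, 8.96 and 8.46 in control and 10.05, 9.11 and 9.68 in ΔTrspM cells. Its log2 fold change was 0.84 ± 0.25 with no overlap (unadjusted p = 0.00595, adjusted test not passed). Il6 was dim and overlapped, with a log2 fold change of -0.91, and Il1b had -1.10 ± 0.61. The value of Il1b was -0.20 without control replicate 2 and -0.47 without replicate 2 of both genotypes. Hpgd, which inactivates prostaglandins, was 12.15, 8.70 and 11.66 in control and 7.76, 6.73 and 10.92 in ΔTrspM cells. Each pair was lower, but the spread within groups was wide and the groups overlapped (log2 fold change -2.37 ± 1.28, unadjusted p = 0.0909).

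Stress genes had higher means for the most part. Hspa1a, an inducible HSP70, was 7.70, 8.26 and 5.84 in control and 8.63, 11.30 and 8.33 in ΔTrspM cells without overlap. Its log2 fold change of 2.15 ± 0.76 was the highest of any gene tested, with an unadjusted p of 0.0160. It rested in part on ΔTrspM replicate 2, without which it was 1.21, and it was 1.70 without replicate 2 of both genotypes. Over 18 heat shock genes the median was 0.14, with 15 higher means. Of 25 genes of the unfolded protein and integrated stress response 21 had a higher mean, with a median of 0.09, and Trib3, a pseudokinase induced by stress, was higher without overlap by 0.52 ± 0.20 (unadjusted p = 0.0252). Egr1, an immediate-early factor, overlapped between the groups, with a log2 fold change of -1.31 (unadjusted p = 0.0442).

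Markers of other cells that marrow cultures can hold had medians of -0.13 (15 neutrophil genes), -0.07 (15 dendritic cell genes), -0.08 (17 lymphoid genes), -0.06 (17 genes of mast cells, basophils and eosinophils), -0.12 (13 erythroid and megakaryocyte genes) and -0.22 (12 endothelial genes). In these lists the genes at an unadjusted p under 0.05 were Cd4 and Ccr3, given above. Both were lower, as were 1.27% of all genes at that threshold. The neutrophil median was 0.15 without ΔTrspM replicate 2 and -0.03 without replicate 2 of both genotypes. Lists of genes for lysosomal enzymes, cholesterol synthesis, glycolysis and NF-κB signalling had medians of 0.03, -0.01, 0.04 and -0.02. At an unadjusted p under 0.05 they held 0, 1, 1 and 0 genes, against 1.12% of all genes higher and 1.27% lower. The 2 genes were Ch25h, cholesterol 25-hydroxylase (-1.14), and Slc2a6, a sugar transporter (-0.59), and both overlapped. They were -0.28 and -0.33 without replicate 2 of both genotypes. In that setting the list medians were -0.03 for lysosomal enzymes (13 of 22 lower) and -0.11 for cholesterol synthesis (16 of 20 lower). They were 0.11 for glycolysis (16 of 19 higher) and 0.09 for NF-κB signalling (17 of 22 higher).

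Fc and C-type lectin receptors and chemokines had a lower mean more often than a higher one, but this rested on the arrays of replicate 2. Of 18 Fc and C-type lectin receptors 13 were lower on average (median -0.14), and 8 without replicate 2 of both genotypes (median 0.02). Among them Fcgrt, the neonatal Fc receptor that recycles IgG, was 10.28, 10.52 and 10.66 in control and 9.69, 9.87 and 10.03 in ΔTrspM cells without overlap (log2 fold change -0.62, unadjusted p = 0.0246). Of 24 chemokines 14 were lower (median -0.12), with pair medians of 0.01, -0.47 and 0.17. Without replicate 2 of both genotypes 8 were lower and the median was 0.10. Cxcl11, a ligand of CXCR3, did not overlap (-1.33, unadjusted p = 0.0487), though its control arrays spread from 6.07 to 8.24 with replicate 2 the highest, and the value was -0.72 without replicate 2 of both genotypes. Mrc1, the mannose receptor, had -0.80 ± 0.54. MHC class II genes had 8 lower means of 11 and a median of -0.25. Without replicate 2 of both genotypes it was also -0.25, with 7 of 11 lower. H2-Ab1 was 10.98, 13.09 and 10.49 in control and 9.88, 12.34 and 9.57 in ΔTrspM cells. Its groups overlapped, and each ΔTrspM array was below the control array of its number. Iron-handling genes had a median of -0.05 over 20 genes and LXR targets, which export lipid, of 0.10 over 19 (-0.03 without replicate 2 of both genotypes).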

How the data were processed

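Total RNA of BMDMs was profiled on Affymetrix whole-genome mouse GeneChips, 3 arrays for each of 4 groups. Normalization by the authors was done in Expression Console, and the deposited values are linear signal intensities of 45101 probe sets. How probes were summarized is not given in the sources used. Of the value columns 0 were unused. The 64 control probe sets, 932 with several symbols and 9160 with none were left out. The deposited intensities were quantile-normalized over the 12 arrays, 16 was added and log2 was taken. The brightest probe set of each gene was used (9010 genes had several), and 18145 of 18193 genes have an entry in the RefSeq table.

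Differences were fitted with limma 3.58.1 in R 4.3.3 over 4 group means (8 residual degrees of freedom), adjusted by Benjamini-Hochberg over all genes, threshold 0.05. The fit was tested on simulated arrays. With 3 against 3 arrays the smallest exact p is 0.1, so p-values rest on the pooled spread. The labels call the arrays biological replicates without saying whether they came from separate mice, so p-values cover the spread of these samples, which may be technical. Same-numbered resting arrays correlated at 0.173 to 0.442, each over 0.1, and other numbers at -0.386 to -0.000968, so the numbers were taken to pair the resting cultures. Over all 12 arrays same numbers gave 0.0668 to 0.442 and other numbers -0.386 to 0.0727, ranges that overlap. Array number limits the precision. Mean signal of the resting arrays ran from 575 to 846.6, with 16.15% to 24.1% of probe sets below 16. On the LPS arrays, which share the normalization and fit, it ran from 199.7 (ΔTrspM replicate 2, 47.66% below 16) to 860.9.

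Genes were named by a rule: the 15 largest differences each way at an unadjusted p under 0.01 without overlap, the members of each list with the lowest p (up to 4), all selenoproteins, Mt1, Mt2, Lyz2, Vcam1 and Vsig4, and the genes the study's text names. Genes outside it, named with their values, were chosen after these were seen. The 43 lists held 855 genes, 774 of them measured. The comparison, lists and rule were chosen with earlier results of these data known. Alternatives were the scaling, the pseudocount (1, 64), a filter on dim genes, all or averaged probe sets, the arrays in the fit, trend and robust options, the replicate block, the methods' t-test, and each array left out. Leaving out the LPS-treated ΔTrspM replicate 2, and replicate 2 of both resting groups, was chosen after seeing the data. Promoter windows were read from RefSeq (GRCm38.p6), and none was found for Vcam1.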

Additional observations from a re-analysis of the deposited data

Results flagged for a closer look

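The control probe sets for 18S ribosomal RNA, which belong to no gene tested, were brighter on ΔTrspM than on control arrays of resting cells. The mean difference over the 3 pairs of equal number was 1.85 on the log2 scale. By pair it was 2.82, 2.64 and 0.10. Control arrays lay at 7.28, 6.82 and 7.57, and ΔTrspM arrays at 10.10, 9.45 and 7.67. The groups did not overlap. Its part in the differences between genes was not tested.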

How the results depend on the processing

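The number of genes at an adjusted p under 0.05, 0 as reported, was 4 with a pseudocount of 64, 3 with dim genes left out (11627 genes with a mean log2 value of 6 or more), 3 with all probe sets of a gene averaged, and 4 with the trend and robust options of limma. It was 0 to 1 when each resting array was left out in turn, the 1 being Vcam1 without ΔTrspM replicate 3, and 0 in every other alternative run, the methods' t-test included (336 higher and 277 lower at an unadjusted p under 0.05). Genes higher at an unadjusted p under 0.05, 204 as reported, were 332 with each array centred, 41 with no scaling, 346 with normalization and fit over the 6 resting arrays, 65 with the filter on dim genes, 360 over all probe sets, 332 with the resting arrays alone in the fit, and 143 to 307 with an array left out. With the replicate block they were 457 over 12 arrays, 765 over 6, and 540 with replicate 2 left out of all groups. Genes lower, 231 as reported, were 81 with no scaling, 99 with the filter, 392 over all probe sets, and 343 and 488 with the replicate block over 12 and 6 arrays. With an array left out they were 196 to 316. Beyond these counts, the block moved the list counts given above. The causes were not tested, apart from the fewer genes tested with the filter and the more tests over all probe sets. The 32 genes with full values kept their direction in every alternative (0 reversed, 675 on the same side of the threshold, 15 newly past it). Of the other 172 named genes 139 kept their sign throughout and 0 passed an adjusted p of 0.05 anywhere. Dim signal limits the 46 of 84 genes with both means under 6, where the added 16 shrinks differences. Of 10092 probe sets with several symbols or none, 0 were called and 220 had an unadjusted p under 0.05.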
